A study of Mus musculus with 24 samples.

Results

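The expression of 10 genes of fatty acid synthesis, elongation and desaturation was followed in mouse sciatic nerve across 4 genotypes and 3 ages. The 10 genes are Acss2, Fasn, Elovl1, Elovl4, Elovl6, Elovl7, Fads1, Fads2, Scd1 and Scd2, taken by name with every probe set annotated to them, which gave 20 of the 20380 probe sets that carry 1 gene symbol and 10 of the 12393 genes measured. Total RNA from whole nerve, stripped of its perineurial sheath, was hybridised to 24 Affymetrix arrays. Each of the 12 groups had 2 arrays, labelled as biological replicates: S63del/Chop null, S63del, Chop null and WT (wild type) nerves at postnatal day 5 (P5, an early stage of myelin formation), P28 (a stage of active myelin growth) and 4 months (adult). S63del mice are a transgenic model of Charcot-Marie-Tooth neuropathy, in which a mutant protein is made beside the animal's own. Chop null mice lack Ddit3, the gene of the stress transcription factor CHOP, and S63del/Chop null mice combine both alterations. The labels do not name the strain or say whether nerves of several animals were pooled for an array, so the p-values measure the spread between these arrays. A nerve holds axons, Schwann cells, fibroblasts, vessels and fat, and in such bulk RNA fewer cells of a type and less RNA per cell cannot be told apart.

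A myelinating Schwann cell wraps an axon in many layers of its own membrane, and most of that membrane is lipid. The cell makes much of its fatty acid itself: acetyl-CoA is assembled into palmitate, elongases of the endoplasmic reticulum lengthen the chain, and desaturases add double bonds. Sterol regulatory element-binding proteins, encoded by Srebf1 and Srebf2, are known to activate many genes of this route, and mice whose Schwann cells lack Fasn myelinate poorly. In S63del nerves the mutant protein is known to be held in the endoplasmic reticulum, where it sets off the unfolded protein response that includes Ddit3.

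Promoter sequence was available from RefSeq (mouse build GRCm38.p6) for 7 of the 10 genes, in 8 windows of 250 bases that end at the annotated gene start. Shown are Acss2, Elovl6 and Elovl7, which were lower in mutant nerve at P5, and Fasn, whose difference did not pass the test. Capitals mark the letters CCAAT or CACCCCAC on either strand, and each sequence is written 5′ to 3′ along the gene's own strand.
Acss2 (chr2:155517793-155518042, plus strand): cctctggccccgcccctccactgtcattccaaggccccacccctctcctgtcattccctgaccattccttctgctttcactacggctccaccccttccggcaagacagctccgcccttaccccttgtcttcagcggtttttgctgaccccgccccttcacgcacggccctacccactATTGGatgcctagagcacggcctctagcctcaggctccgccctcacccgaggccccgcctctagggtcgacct
Elovl6 (chr3:129532136-129532385, plus strand): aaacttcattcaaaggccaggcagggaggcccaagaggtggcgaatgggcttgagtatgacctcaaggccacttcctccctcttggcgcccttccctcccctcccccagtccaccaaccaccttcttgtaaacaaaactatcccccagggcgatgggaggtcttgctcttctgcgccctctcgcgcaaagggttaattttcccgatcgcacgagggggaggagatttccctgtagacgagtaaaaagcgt
Elovl7 (chr13:108214154-108214403, plus strand): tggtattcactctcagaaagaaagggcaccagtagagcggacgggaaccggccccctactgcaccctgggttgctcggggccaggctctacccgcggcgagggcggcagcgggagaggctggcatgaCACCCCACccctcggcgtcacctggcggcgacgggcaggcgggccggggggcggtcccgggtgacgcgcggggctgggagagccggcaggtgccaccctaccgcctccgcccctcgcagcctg
Fasn (chr11:120824548-120824797, minus strand): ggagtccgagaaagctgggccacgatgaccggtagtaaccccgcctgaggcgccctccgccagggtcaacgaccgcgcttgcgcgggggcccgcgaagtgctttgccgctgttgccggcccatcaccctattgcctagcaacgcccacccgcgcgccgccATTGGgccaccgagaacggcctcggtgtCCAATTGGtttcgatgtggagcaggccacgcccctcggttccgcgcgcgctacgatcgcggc
The core of a sterol regulatory element, CACCCCAC, was found in 1 of the 8 windows, that of Elovl7, 123 to 116 bases before the start, and in 2.58% of the 32851 windows of the whole table. The longer form TCACNCCAC was found in 0 of the 8 windows and in 1.05% of all windows. CCAAT was found in 3 windows (Acss2, Elovl1 and Fasn) and in 33.8% of all windows, and CACGTG in 0 windows and in 6.02% of all. GGGCGG was found in 6 windows and in 32.7% of all, all motifs being searched on both strands. A CCAAT match overlapped a GGGCGG match in the window of Elovl1, and 2 CCAAT matches on opposite strands overlapped each other in that of Fasn. These matches describe the letters of the windows, and a window without a match says nothing of binding elsewhere. Fads1 and Fads2 lie next to each other with 0 protein-coding genes between them, and Scd1 and Scd2 have 1 between them, Scd4.

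The 24 arrays had medians of 6.84 to 7.03 on the log2 scale and highest values of 14.10 to 14.31, and the interquartile range was 2.90 to 3.52 at P28 against 3.77 to 3.901 at the other ages. Ddit3 was lower in all 12 arrays labelled as lacking it (6.60 to 7.37) than in the other 12 (7.61 to 9.59). The 9 measured genes of the myelinating Schwann cell, among them Mbp and Egr2, averaged 11.33 to 12.16 per array. At 4 months 2 arrays went against their labels by a score of the mutation. This score was taken over the 92 genes called the same way in S63del against WT at P5 and P28 (58 higher and 34 lower), leaving out Ddit3 and the 10 genes described here. At P5 it lay between 0.92 and 0.98 in the 4 arrays that carry S63del and between -0.22 and -0.15 in the 4 that do not, and at P28 between 0.17 and 0.22 against -0.78 and -0.67. The choice of genes fixed in advance that S63del and WT arrays separate at P5 and P28. The other 2 genotypes were not compared in that choice. At P5 S63del/Chop null had 0.95 and 0.92 and Chop null -0.17 and -0.15. At P28 these were 0.17 and 0.18 against -0.74 and -0.71. Scores at 4 months lay closer together than at P5 or P28. At 4 months it was -0.32 in S63del/Chop null replicate 1 and 0.04 in replicate 2, 0.07 and 0.03 in S63del, -0.02 in Chop null replicate 1 and -0.23 in replicate 2, and -0.21 and -0.31 in WT. The array labelled S63del/Chop null replicate 1 thus lay with the WT arrays and that labelled Chop null replicate 1 nearer the S63del arrays, and Ddit3 cannot tell these 2 apart because both lack it. The arrays were kept under their labels. Comparisons of the 10 genes at 4 months are also given without both, as are calls at other ages that changed. The choice to leave them out was made after the data were seen.

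At P5, 6 of the 10 genes were lower in S63del than in WT nerve (Acss2, the desaturases Scd1, Scd2 and Fads1, and the elongases Elovl6 and Elovl7) and 0 were higher. Of all genes 2.4% passed in either direction and 1.26% were lower. The median log2 difference of the 10 genes was -0.83, against -0.02 over all genes. Calls are from limma, fitted on all 24 arrays, at a Benjamini-Hochberg adjusted p under 0.05 over all genes.

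Acss2, which makes acetyl-CoA from acetate in the cytosol and nucleus, read 7.47 and 7.40 in S63del against 9.26 and 9.15 in WT at P5. It was 3.40-fold lower (log2 difference -1.76, SE 0.34, limma adjusted p = 0.0066). Fasn, the multifunctional enzyme that builds palmitate, read 9.82 and 9.60 in S63del against 10.49 and 10.61 in WT. Both mutant arrays of each gene lay below both WT arrays, but for Fasn the log2 difference of -0.84 (SE 0.36) had an adjusted p of 0.38 in limma.

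The desaturases Scd1 and Scd2 put the first double bond into stearate and palmitate and so make oleate and palmitoleate. Scd1 read 11.10 and 10.28 in S63del against 11.78 and 11.99 in WT, a log2 difference of -1.20 (SE 0.20, limma adjusted p = 0.0023). Scd2 read 12.89 and 12.70 in S63del against 13.23 and 13.35 in WT, a log2 difference of -0.49 (SE 0.11, limma adjusted p = 0.023). The groups did not overlap for either gene, though the 2 S63del arrays were 0.82 apart for Scd1. Without S63del replicate 2 the log2 difference of Scd1 was -0.78 (limma adjusted p = 0.055). Fads1, the delta-5 desaturase of polyunsaturated fatty acids, read 9.97 and 10.01 in S63del against 10.73 and 10.73 in WT and was 1.67-fold lower (limma adjusted p = 0.020). Its neighbour Fads2, the delta-6 desaturase, read 8.68 and 8.66 in S63del against 9.48 and 9.505 in WT. The Fads2 arrays were as clearly separated, yet its log2 difference of -0.82 (SE 0.28) had a limma adjusted p of 0.19 with the spread estimated over all 12 groups, and 0.00086 in a fit of the 8 arrays of P5 alone.

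Among the elongases, Elovl6, which lengthens palmitate to stearate, read 10.47 and 10.43 in S63del against 11.996 and 11.907 in WT at P5, 2.83-fold lower (log2 difference -1.50, SE 0.17, limma adjusted p = 5.7e-05). Elovl7, which extends long saturated chains, read 10.02 and 10.02 in S63del against 11.08 and 11.03 in WT, 2.05-fold lower (log2 difference -1.04, SE 0.15, limma adjusted p = 0.00042). The 2 replicates of each group lay within 0.09 of each other for both genes, a small gap beside the difference between genotypes. Elovl1, which makes the very long saturated chains of sphingolipids, read 12.01 and 12.13 in S63del against 12.43 and 12.45 in WT, with a log2 difference of -0.37 (SE 0.12) that did not pass (limma adjusted p = 0.16). Elovl4, which makes the longest chains, read 4.58 and 4.88 in S63del against 4.77 and 4.66 in WT, below the arrays' medians of 6.84 to 7.03. A lower level would be hard to see there, and Elovl4 is the gene of the 10 that a filter on dim genes (mean under the 40th percentile) leaves out. It was the only gene of the 10 whose groups overlapped at P5.

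When each probe set was fitted on its own, the other set of Acss2 (log2 difference -1.81), Elovl6 (-1.42) and Elovl7 (-1.05) also passed. The other sets of Scd1 (-0.90), Scd2 (-0.73 and -0.93), Fads2 (-0.80) and Elovl1 (-0.39 and -0.56) were below 0 without passing. Both sets of Elovl4 were near 0 (0.01 and -0.03). The count of 6 changed with the spread used: it was 9 of 10, with Elovl4 the exception, when the 8 arrays of P5 were fitted alone. It was 3 without WT replicate 1 or WT replicate 2, 4 without S63del replicate 1 and 2 without S63del replicate 2, and Elovl6 and Elovl7 were called in each of these fits.

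**Figure D1:**
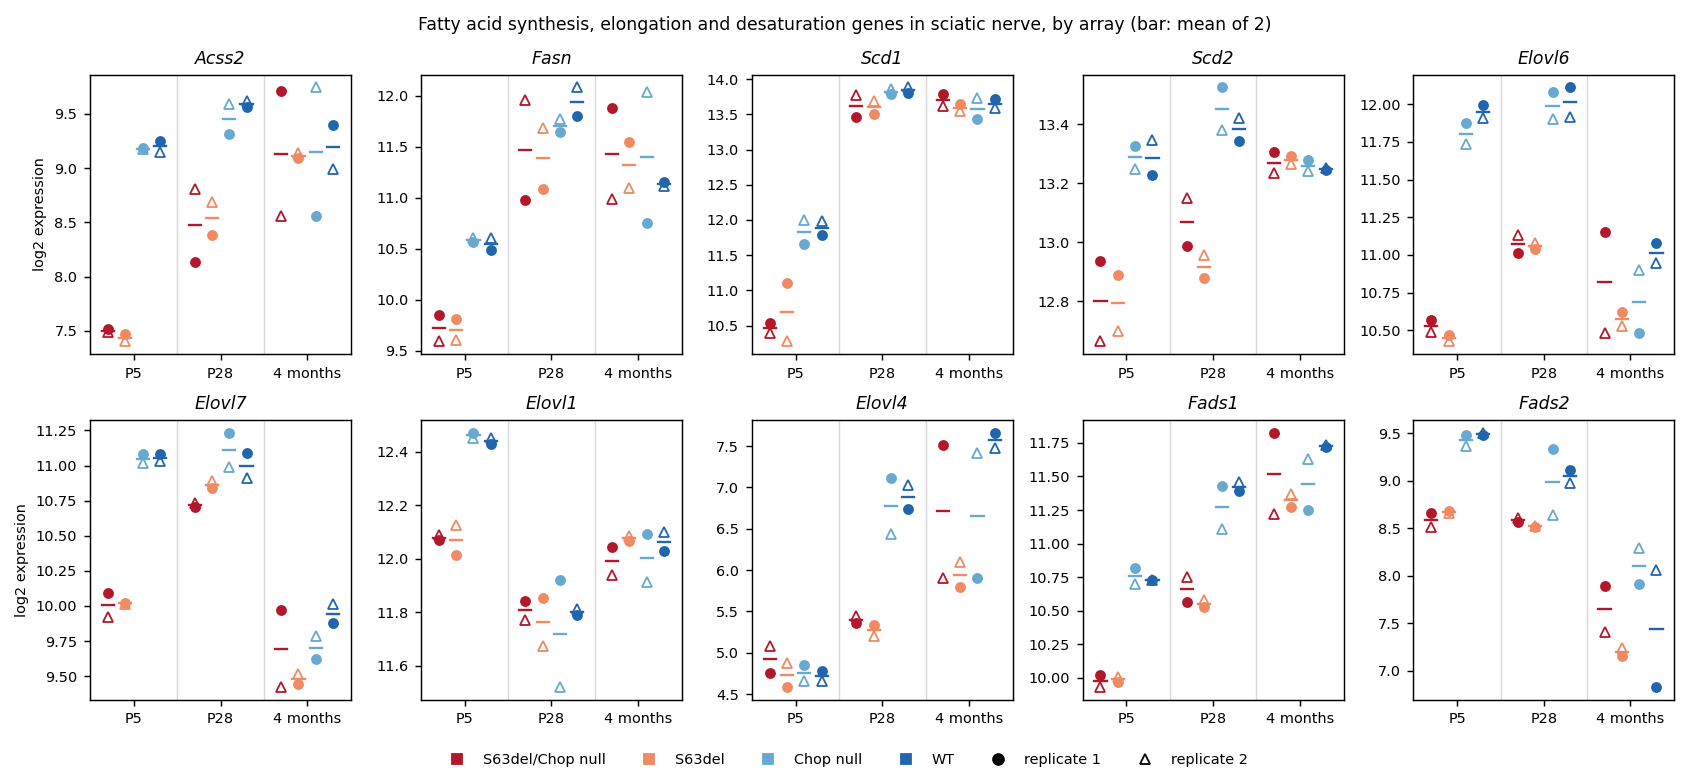
Log2 expression (vertical axes) of the 10 genes in each of the 24 arrays, by age and, within an age, S63del/Chop null, S63del, Chop null and WT from left to right; circles are replicate 1, triangles replicate 2 and bars the mean of 2. At P5 the 4 arrays with S63del lie below the 4 without it for every gene except Elovl4, and at 4 months the replicates of S63del/Chop null and of Chop null lie far apart for Acss2, Fasn and Elovl4.

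At P28, 4 of the 10 genes were lower in S63del than in WT (Elovl4, Elovl6, Fads1 and Scd2) and 0 were higher, while 4.62% of all genes passed in either direction and 1.61% were lower. The median log2 difference of the 10 genes was -0.54, against 0.01 over all genes, and all 10 differences were below 0. Elovl6 read 11.04 and 11.08 in S63del against 12.11 and 11.92 in WT, 1.94-fold lower (log2 difference -0.96, SE 0.17, limma adjusted p = 0.0047). Fads1 read 10.53 and 10.58 in S63del against 11.39 and 11.46 in WT, 1.83-fold lower (log2 difference -0.87, SE 0.17, limma adjusted p = 0.0066). Scd2 read 12.88 and 12.96 in S63del against 13.34 and 13.42 in WT, a log2 difference of -0.46 (SE 0.11, limma adjusted p = 0.025). For these 3 genes the gap between genotypes was larger than the gap between replicates of either.

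Elovl4, whose arrays overlapped at P5, read 5.34 and 5.21 in S63del against 6.74 and 7.02 in WT at P28, 3.06-fold lower (log2 difference -1.61, SE 0.42, limma adjusted p = 0.0385). Its other probe set read 4.99 and 5.39 in S63del against 5.99 and 6.01 in WT. The S63del values lie close to the dim values of P5, so folds of Elovl4 may understate the difference. Acss2 read 8.38 and 8.69 in S63del against 9.57 and 9.62 in WT, 2.08-fold lower with an adjusted p of 0.081 in limma. Neither S63del array of Acss2 reached the WT values, as at P5, but the log2 difference of -1.06 (SE 0.34) did not pass. That SE is shared by all groups, among them Chop null (8.55 and 9.75) and S63del/Chop null (9.71 and 8.55) at 4 months. Without the 2 arrays at 4 months that went against their labels, Acss2 passed at P28 with the same log2 difference.

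The remaining 5 genes had smaller differences at P28, none of which passed: Fasn (log2 difference -0.56), Fads2 (-0.52), Scd1 (-0.24), Elovl7 (-0.13) and Elovl1 (-0.04). Scd1 and Elovl7, called at P5, thus had intervals at P28 of -0.67 to 0.19 and of -0.44 to 0.17 (95%, log2). Scd1 values at P28 and 4 months, 13.43 to 13.89, lie close to the arrays' highest values of 14.10 to 14.31, and whether this narrows its differences was not tested. The other probe set of Scd1, which is less bright, read 9.63 and 9.30 in S63del against 10.36 and 9.98 in WT at P28, without overlap. At 4 months that set read 9.14 and 8.87 in S63del against 9.14 and 10.02 in WT. The count of 4 fell to 0 without WT replicate 1 or without S63del replicate 1, and to 2 (Elovl6 and Fads1) without WT replicate 2 or S63del replicate 2. With the 8 arrays of P28 fitted alone 1 gene (Elovl4) was called.

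At 4 months 0 of the 10 genes passed between S63del and WT, as did 0% of all genes. Without adjustment 4 of the 10 and 577 of all genes had p under 0.05 in limma. Elovl4 read 5.79 and 6.09 in S63del against 7.66 and 7.48 in WT, 3.09-fold lower (log2 difference -1.63, SE 0.42, adjusted p = 0.59). Its other probe set, at 5.28 and 5.37 in S63del against 6.92 and 6.66 in WT, gave a log2 difference of -1.46. The S63del and WT arrays of Elovl4 were well apart on both probe sets. At P28 a log2 difference of -1.61 with the same SE passed, where 4.62% of all genes did. The difference of -1.63 at 4 months has an SE shared by all groups, among them the other 2 genotypes, whose replicates differed by 1.51 and 1.61. Without the 2 arrays that went against their labels, the same difference had a limma adjusted p of 0.0011, and Elovl4 was the 1 gene of the 10 called, among 35 genes in all.

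Elovl7 (log2 difference -0.47, SE 0.15), Elovl6 (-0.44, SE 0.17) and Fads1 (-0.41, SE 0.17) also had both S63del arrays below both WT arrays at 4 months, with adjusted p of 0.70, 0.92 and 0.95 in limma, and did not pass without the 2 arrays either. Elovl6 read 10.62 and 10.53 in S63del against 11.08 and 10.95 in WT. Acss2, the gene that differed most at P5, read 9.09 and 9.14 in S63del against 9.40 and 8.99 in WT. The Acss2 groups overlapped, and the 95% interval of its log2 difference ran from -0.79 to 0.63. Scd1, Scd2, Fasn, Fads2 and Elovl1 had log2 differences between -0.24 and 0.18, none of which passed.

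The same mutation was measured a second time in the absence of Chop, as S63del/Chop null against Chop null, with 4 other arrays at each age. At P5 the same 6 genes were lower and 0 higher, where 1.78% of all genes passed in either direction and 0.88% were lower. Elovl6 read 10.57 and 10.49 in S63del/Chop null against 11.88 and 11.73 in Chop null (log2 difference -1.28, SE 0.17, limma adjusted p = 0.00041). Acss2 read 7.52 and 7.49 in S63del/Chop null against 9.18 and 9.17 in Chop null (log2 difference -1.68, SE 0.34, limma adjusted p = 0.012). Scd1 read 10.53 and 10.40 in S63del/Chop null against 11.663 and 11.996 in Chop null (log2 difference -1.37, SE 0.20, limma adjusted p = 0.00087). The groups did not overlap for any of these 3 genes. Elovl7, Fads1 and Scd2 had log2 differences of -1.04, -0.78 and -0.49, and Fasn, Fads2 and Elovl1 had -0.87, -0.84 and -0.38 without passing. Gene by gene, the log2 differences with and without Chop lay within 0.23 of each other at P5. Elovl6, Elovl7 and Scd1 were called in each fit that left out 1 of the 4 arrays, and the count was 4 without S63del/Chop null replicate 1 and 3 without any other of the 4.

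**Figure D2:**
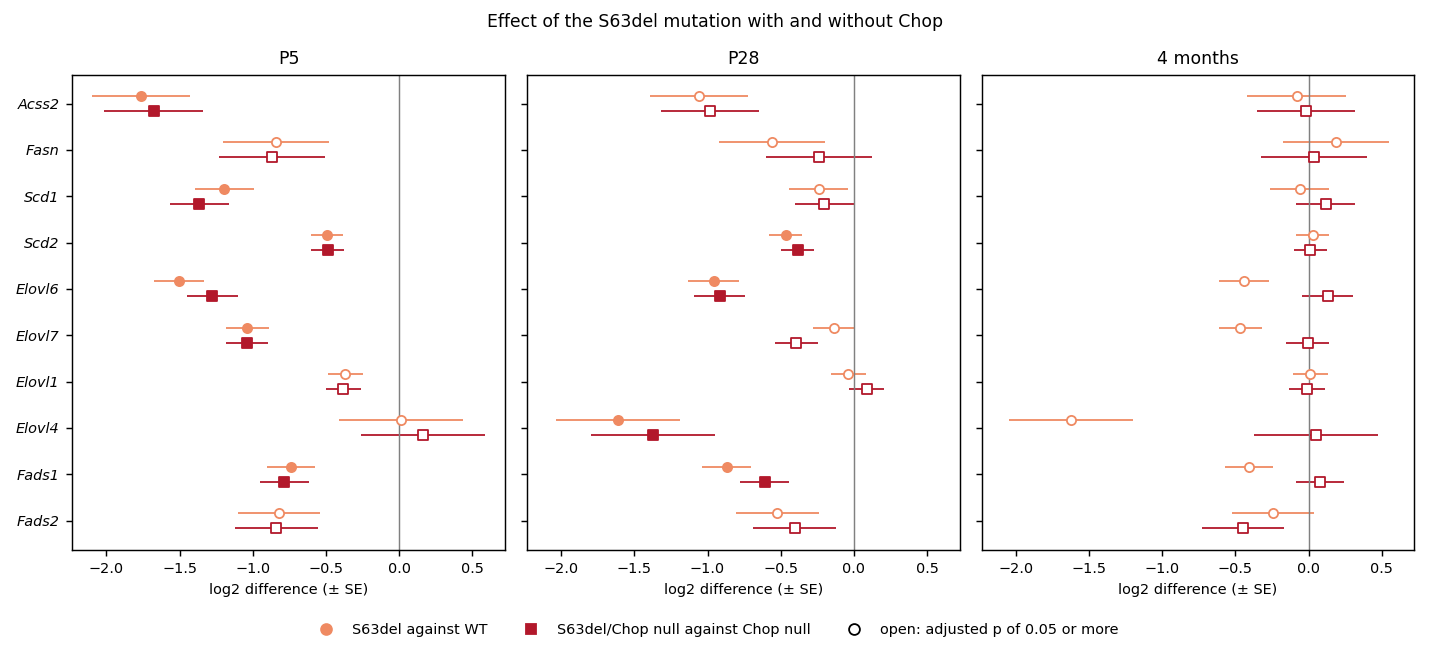
Log2 difference of S63del against WT (circles) and of S63del/Chop null against Chop null (squares) for each gene at each age, with bars of 1 SE from limma; filled symbols have an adjusted p under 0.05. The 2 comparisons share no array, and at P5 the same 6 genes and at P28 the same 4 genes are filled in both. They do share 1 fit, in which a gene has the same SE in both, so which symbols are filled is not independent between them.

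At P28 the same 4 genes as with Chop present were lower in S63del/Chop null than in Chop null, where 17.8% of all genes passed in either direction and 8.05% were lower, a far higher background than at P5. That background was 553 genes without Chop null replicate 2 and 5988 without Chop null replicate 1, against 2209 with both. Elovl4 read 5.36 and 5.44 in S63del/Chop null against 7.11 and 6.43 in Chop null (log2 difference -1.37, SE 0.42, limma adjusted p = 0.036). Elovl6 read 11.01 and 11.13 in S63del/Chop null against 12.08 and 11.90 in Chop null (log2 difference -0.92, SE 0.17, limma adjusted p = 0.0036). Fads1 (-0.61) and Scd2 (-0.38) were lower as well, and Acss2 had a log2 difference of -0.98 with an adjusted p of 0.052 in limma. Without the 2 arrays at 4 months that went against their labels, Acss2 and Elovl7 (log2 difference -0.39) were also called lower here. The largest gap between the 2 measurements of the mutation at P28 was 0.32, for Fasn. Array weights left 0 of the 10 genes and 14 of all genes called here, and the arrays of P28 fitted alone left 1. Only Elovl6 was called in each fit that left out 1 of the 4 arrays, in which the count was 1 without S63del/Chop null replicate 1 or 2, 2 without Chop null replicate 2 and 3 without Chop null replicate 1. In the last of these fits Acss2 and Elovl6 were lower and Elovl1 was called higher (log2 difference 0.29, limma adjusted p = 0.043).

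At 4 months 0 of the 10 genes and 0% of all genes passed in S63del/Chop null against Chop null, and at an unadjusted p under 0.05 also 0 of the 10, against 181 genes in all. Elovl4 read 7.51 and 5.91 in S63del/Chop null against 5.91 and 7.42 in Chop null. Acss2 read 9.71 and 8.55 in S63del/Chop null against 8.55 and 9.75 in Chop null. For both genes 1 array of each genotype was high and 1 low, and the high S63del/Chop null array and the low Chop null array were the 2 that went against their labels. All 10 genes were higher in replicate 1 than in replicate 2 of S63del/Chop null, by a median of 0.58, and 8 of 10 were lower in replicate 1 than in replicate 2 of Chop null. Without these 2 arrays, 1 array was left in each group and taken to vary as the other groups did: the log2 difference was -1.51 for Elovl4 and -1.19 for Acss2, with limma adjusted p of 0.11 and 0.20, and 0 of the 10 genes were called.

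**Figure D3:**
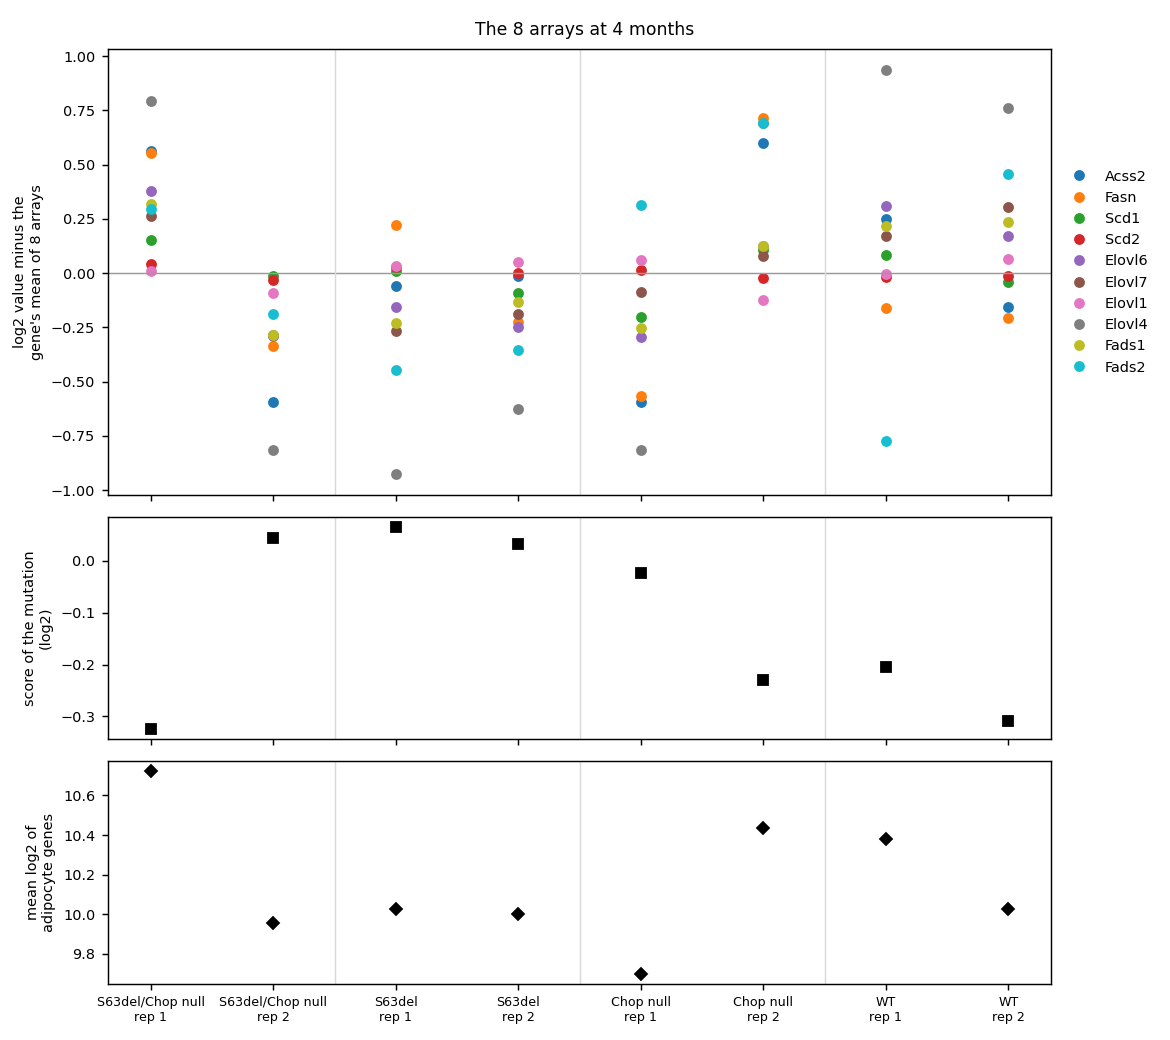
The 8 arrays at 4 months, with S63del/Chop null at the left and WT at the right: each gene's log2 value minus its mean over the 8 arrays (top), the score of the mutation over 92 other genes (middle, log2) and the mean log2 value of 13 adipocyte genes (bottom). Elovl4 is high in S63del/Chop null replicate 1, Chop null replicate 2 and both WT arrays, the 4 arrays with scores of -0.21 or lower.

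Fat cells of the nerve express several of the same enzymes, so 13 measured adipocyte genes were set beside these values. At 4 months 12 of the 13 were higher in replicate 1 than in replicate 2 of S63del/Chop null, whose mean adipocyte log2 values were 10.72 and 9.96. All 13 were lower in replicate 1 than in replicate 2 of Chop null, at 9.70 and 10.44. S63del nerves had means of 10.03 and 9.998, against 10.38 and 10.03 in WT. The adipocyte genes thus moved with Acss2 and Fasn between these replicates, and their part in the differences was not tested. In S63del against WT 0 of the 13 adipocyte genes were called at P5 or at P28, with medians of -0.29 and -0.28 and with means per array of 7.28 and 7.03 in S63del against 7.19 and 7.61 in WT at P5. At P28 these means were 9.499 and 9.92 in S63del against 9.75 and 10.04 in WT. Between S63del/Chop null and Chop null 0 of the 13 were called at P5 or P28, with medians of -0.51 and -0.35.

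Loss of Chop in mutant nerve was compared as S63del/Chop null against S63del. None of the 10 genes passed at any age, where 0.0161%, 0.00807% and 0.00807% of all genes did at P5, P28 and 4 months, and 0 of the 10 had an unadjusted p under 0.05, against 110, 466 and 274 of all genes. Ddit3 itself passed at each age, with log2 differences of -2.68, -2.32 and -2.38. The 10 differences lay between -0.23 and 0.19 at P5, between -0.15 and 0.15 at P28 and between -0.08 and 0.77 at 4 months. The 95% interval was -0.65 to 0.78 for Acss2 at P5, and for Elovl6 it was -0.28 to 0.45 at P5 and -0.35 to 0.38 at P28. At 4 months Elovl4 had a log2 difference of 0.77 (95% interval -0.13 to 1.66), which was -0.04 without the 2 arrays that went against their labels. The 10 differences at 4 months then ran from -0.56 (Acss2) to 0.21 (Fads2), and 0 passed.

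Chop null nerves without the mutation had 0 of the 10 genes called against WT at each age, where 0%, 0% and 0.00807% of all genes passed. At an unadjusted p under 0.05 the counts were 0, 0 and 2 of the 10, against 114, 1244 and 733 of all genes. All 10 log2 differences at P5 lay between -0.15 and 0.04, as for Acss2, which read 9.18 and 9.17 in Chop null against 9.26 and 9.15 in WT. The groups of Acss2 overlapped. Over all genes the count at P28 was 3484 without Chop null replicate 1 and 14 without replicate 2, with 0 of the 10 genes in either fit. At 4 months the log2 difference of Fads2 was 1.28 without WT replicate 2, a fit whose only WT array of that age was replicate 1, with Fads2 at 6.83. The interaction of S63del and Chop null, the difference between the 2 measurements of the mutation, was called for 0 of the 10 genes and 0% of all genes at each age. At 4 months 3 of the 10 (Elovl4, Elovl6 and Elovl7) had an unadjusted p under 0.05, against 322 of all genes, and at P5 and P28 0 of the 10 did, against 107 and 972. The interaction of Elovl4 was 1.67, and 0.12 without the 2 arrays that went against their labels, and 0 of the 10 genes then passed for the interaction or for Chop null against WT at 4 months. Without Chop null replicate 1 at P28, 2239 genes passed for the interaction there, but 0 of the 10.

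Differences of the S63del effect between ages were tested directly and passed for 0 of the 10 genes, where 0.476%, 0.169% and 0.282% of all genes passed for P28 against P5, 4 months against P28 and 4 months against P5. At an unadjusted p under 0.05 the counts were 4, 2 and 7 of the 10, against 1006, 1064 and 608 of all genes (8.12%, 8.59% and 4.91%). The effect on Acss2 was weaker at 4 months than at P5 by 1.68 (log2, SE 0.48, limma adjusted p = 0.29) and that on Elovl6 by 1.06 (SE 0.24, adjusted p = 0.10). For Elovl4, which was dim in all groups at P5 and so had little room to be lower there, the effect at 4 months differed by -1.64 (SE 0.60, adjusted p = 0.65). Between P28 and P5 the effect on Elovl7 differed by 0.90 (SE 0.21, limma adjusted p = 0.071) and that on Scd1 by 0.96 (SE 0.29, adjusted p = 0.24). For Scd1 this is the brighter probe set, which lies close to the arrays' highest values at P28. Its other set changed less, with means of 7.70 in S63del against 8.60 in WT at P5 and 9.46 against 10.17 at P28. Without the 2 arrays that went against their labels, Acss2, Elovl4 and Elovl6 were called for 4 months against P5 and Elovl4 and Elovl7 for P28 against P5, with limma adjusted p between 0.0068 and 0.017, where 0.452% and 0.718% of all genes passed. For 4 months against P28 it was then 0 of the 10. In the comparisons with P28, age cannot be told apart from the narrower interquartile range of the P28 arrays.

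In WT nerve the 10 genes followed no shared course with age. From P5 on, Elovl4 read 4.77 and 4.66 at P5, 6.74 and 7.02 at P28 and 7.66 and 7.48 at 4 months, a log2 difference of 2.85 between 4 months and P5 (SE 0.42, limma adjusted p = 3.7e-05). Scd1 had 11.78 and 11.99 at P5, 13.80 and 13.89 at P28 and 13.71 and 13.59 at 4 months. Fads2 had 9.48 and 9.505 at P5, 9.11 and 8.98 at P28 and 6.83 and 8.06 at 4 months, a log2 difference of -2.05 between 4 months and P5 (SE 0.28, limma adjusted p = 1.6e-05). Scd1 and Elovl4 thus ended high and Fads2 low, with a wide gap of 1.23 between the 2 Fads2 arrays at 4 months. The lower of these 2, WT replicate 1, is set beside a control of RNA quality below.

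Between P28 and P5, Elovl4, Scd1, Fasn and Fads1 were higher and Elovl1 was lower, 5 of 10 where 59.5% of all genes passed, 31.3% higher and 28.2% lower. Between 4 months and P28, Fads2, Elovl7 and Elovl6 were lower, 3 of 10 where 57.0% of all genes passed and 25.5% were lower, and without the 2 arrays that went against their labels, neither of them WT, 6 passed, adding Fasn (lower), Elovl4 and Fads1 (higher), where 55.1% of all genes passed. Between 4 months and P5, 3 were higher (Elovl4, Scd1 and Fads1) and 4 lower (Fads2, Elovl7, Elovl6 and Elovl1), 7 of 10 where 36.8% passed, 21.3% higher and 15.5% lower. The first 2 of these shares are below those of all genes with all arrays, and the second, at 6 of 10, is above it without the 2 arrays. The count for 4 months against P5 was 7 without them as well. The P28 arrays had a narrower interquartile range than those of the other ages, and this cannot be told apart from age. Of the WT calls, quantile normalization changed that of Fasn between 4 months and P28, which was then called lower. The higher values of Scd1 and Fasn at P28 than at P5 came with higher values of 12 of the 13 adipocyte genes (median log2 difference 2.66, Adipoq 2.94), and the part of fat cells in them was not tested. The mean adipocyte log2 value was 6.63 to 7.61 in the P5 arrays, 9.22 to 10.10 at P28 and 9.70 to 10.72 at 4 months.

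Scd2 showed how much an age difference can hang on the probe set. Between 4 months and P5 in WT, its 3 probe sets gave log2 differences of -0.04, -0.95 and -5.05. The last of them, 1415824_at, had 4.55 and 7.89 in WT at 4 months, against 11.12 and 11.42 at P5. The control probe sets of Gapdh, whose 3′ minus 5′ difference grows as RNA fragments or is copied incompletely, moved with it. That difference was -0.22 to -0.17 at P5, -0.05 to 0.39 at P28 and -0.04 to 2.12 at 4 months. The lowest value of 1415824_at, in WT replicate 1 at 4 months, fell on the array with the 2.12, and its next lowest, 5.88 and 6.19 in S63del at 4 months, on those with 1.32 and 1.05. The probe set used for Scd2 throughout, 1415822_at, read 13.25 on that WT array and 13.25 on the other. Fads2 also had its lowest value, 6.83, on that WT array. Its next lowest, 7.15 and 7.24, were on the S63del arrays with 1.32 and 1.05. The part of RNA quality in the age differences was not tested.

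**Figure D4:**
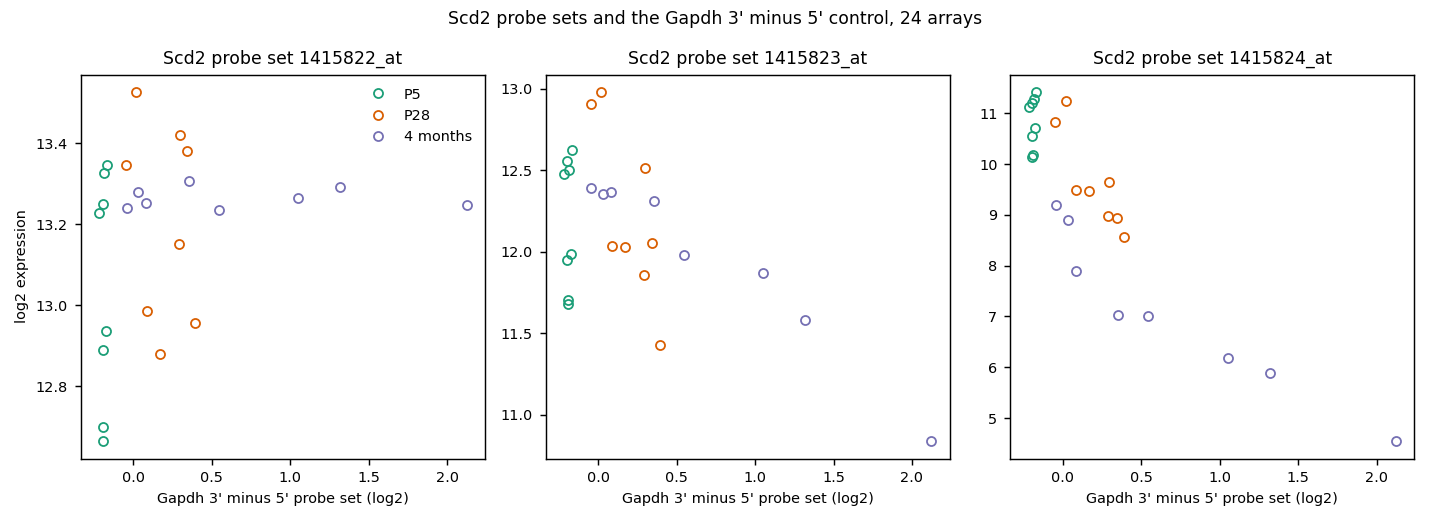
Log2 value of the 3 Scd2 probe sets against the Gapdh 3′ minus 5′ difference (log2) in the 24 arrays, coloured by age. Probe set 1415824_at falls to 4.55 at a Gapdh difference of 2.12, where 1415822_at reads 13.25.

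The rest of the pathway was described by lists of genes chosen by function. At P5 in S63del against WT, the 10 measured genes of carbon supply and the first steps had 0 lower and 1 higher, Me1 (malic enzyme, a source of NADPH) at 0.63 (limma adjusted p = 0.049). Within that list Acly, which makes acetyl-CoA from citrate, had a log2 difference of -0.88 (SE 0.29, adjusted p = 0.18), and Acaca, which commits acetyl-CoA to fatty acid synthesis, -0.63 (SE 0.28, adjusted p = 0.41). Acly read 10.20 and 10.11 in S63del against 11.01 and 11.05 in WT. It read 10.22 and 10.18 in S63del/Chop null against 11.03 and 11.06 in Chop null. Its groups thus did not overlap at P5, with or without Chop. The 9 other elongation enzymes and the 8 genes of fatty acid activation and uptake had 0 called. Elovl5, the elongase of polyunsaturated chains, had 0.02. Of the 6 other desaturases and electron carriers, Cyb5r1 was higher (0.77, limma adjusted p = 0.014) and 0 were lower. The 12 genes of fatty acid oxidation had 0 called.

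Of the 10 measured regulators 1 was lower at P5, Mid1ip1, which activates acetyl-CoA carboxylase (log2 difference -0.74, SE 0.14, limma adjusted p = 0.0077). Srebf1 read 9.29 and 9.25 in S63del against 9.41 and 9.39 in WT (-0.13, SE 0.15, adjusted p = 0.92), and Srebf2 had -0.44 (SE 0.18, adjusted p = 0.34). Without Chop, Mid1ip1 was again the regulator called at P5 (-0.65, limma adjusted p = 0.023), while Srebf1 had 0.28 and Srebf2 -0.49. At P28 in S63del against WT, 1 of these pathway genes passed, Me1, which was lower (-0.73, limma adjusted p = 0.016), and in S63del/Chop null against Chop null 4 passed: Pgd (0.64), Acadl (0.63) and Mcat (0.44) were higher and Scd3 (-0.52) lower, against the background of 17.8% there. At 4 months 0 passed in either comparison with all arrays.

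At P5, 3 of 9 measured markers of the myelinating Schwann cell were lower in S63del than in WT: Ncmap (-1.02, limma adjusted p = 0.00020), Mal (-0.51, adjusted p = 0.0080) and Mbp (-0.45, adjusted p = 0.0098), which encode proteins of the myelin sheath. The mean log2 value of the 9 was 11.72 and 11.62 in S63del against 12.13 and 12.16 in WT, and Egr2, the transcription factor that drives myelination, read 11.55 and 11.55 in S63del against 11.56 and 11.55 in WT. In S63del/Chop null against Chop null at P5 the same 3 markers were lower: Ncmap (-0.80), Mal (-0.48) and Mbp (-0.44), and the mean of the 9 was 11.79 and 11.65 in S63del/Chop null against 12.13 and 12.10 in Chop null. The part of these markers in the differences at P5 was not tested. At P28 Mal was lower (-0.41, limma adjusted p = 0.027) and the other 8 did not pass, with means of 12.07 and 12.05 in S63del against 12.05 and 12.02 in WT. Of other cell types, 1 of 6 endothelial genes (Vwf, -0.76) was lower at P5 and 1 of 8 fibroblast and perineurium genes (Ogn) was lower at P5 (-0.78) and P28 (-0.47). Of 10 macrophage genes 2 were higher at P28 (Ctss, 0.96, and Aif1, 0.88), and 0 of 5 erythroid genes were called at either age. The mean of 10 skeletal muscle genes, which can come from tissue beside the nerve, varied between 6.59 and 12.02 over the 24 arrays, with 0 of 10 called between S63del and WT at any age. At P28 it was 7.94 and 11.13 in S63del against 11.94 and 11.37 in WT, with 10 of 10 log2 differences below 0 (median -2.10), and its part in the values at P28 was not tested.

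The course of the 10 genes over the 12 group means was summarised by the mean of their standardised levels, which was lowest in S63del and S63del/Chop null at P5 (-1.12 and -1.10) and highest in WT at P28 (0.81). Acss2 followed the mean of the other 9 most closely (Pearson r = 0.95 over 12 group means), then Scd2 (0.90) and Elovl6 (0.73). Fads2 (0.03) and Elovl1 (-0.24) did not follow it. Among 5899 other genes whose group means span at least 1 log2 unit, the 6 with the highest r with the summary were Acly (0.96), D430019H16Rik (0.94), Cers4 (0.94), Mboat1 (0.92), Reep6 (0.88) and Septin3 (0.88). Acly was thus closest in pattern, although its difference between S63del and WT did not pass at any age. These correlations describe 12 means of all arrays under their labels, which share normalization.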

How the data were processed

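The arrays read biotin-labelled RNA made from 5 ug of nerve RNA each. Per array, 22690 probe sets carry log2 values, deposited by the authors and judged to be log2 from their range, and no source used here states the normalization or software. The precision is set by the number of arrays. Probe sets with several gene symbols (691), with none (1555) and 64 controls were left out, which kept 20380. The gene table of GRCm38.p6 held the gene IDs of 20351 of them and changed 0 symbols. Where a gene had several probe sets (4956 genes), the brightest on average stood for it, giving 12393 genes.

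In limma 3.58.1 (statmod 1.5.0, R 4.3.3) each of the 12 groups had its own mean and all 24 arrays shared the spread (12 residual degrees of freedom). The 21 contrasts were adjusted by Benjamini-Hochberg over all genes at 0.05, and the fit was tested on simulated data. Alternatives changed the normalization, the probe sets, the dim genes, the weights, the spread or the arrays. The 10 genes, 13 other lists and most alternatives were chosen with earlier results of these data known. The text names all 10 genes, up to 4 called genes of a list with the smallest p, Srebf1, Srebf2, Acaca, Acly, Ddit3, Egr2, Adipoq, and 6 genes of like pattern; Elovl5 was named in addition, after its value was seen.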

Additional observations from a re-analysis of the deposited data

How the results depend on the processing

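No alternative turned the direction of a called difference. Counts below are of the 10 genes called by limma. Leaving out 1 array gave 2 to 4 for S63del against WT at P5 (6 with all arrays) and 0 to 2 at P28 (4 with all arrays). It gave 3 to 4 for S63del/Chop null against Chop null at P5 (6) and 1 to 3 at P28 (4), 0 to 1 for Chop null against WT at 4 months (0), 6 to 7 for WT at 4 months against P5 (7), and 0 to 1 for the change of the S63del effect at P28 or at 4 months against P5 (0 each). S63del against WT at P28 gave 2 with the mean of all probe sets, 2 with array weights and 1 with the arrays of that age alone. S63del/Chop null against Chop null at P28 gave 0 with array weights and 1 with that age alone. WT at 4 months against P28 (3) gave 5 with every probe set on its own, 5 with those groups alone and 6 without the 2 arrays at 4 months that went against their labels. Without these arrays S63del against WT at 4 months gave 1. The change of the S63del effect at P28 against P5 (0) gave 1 with dim genes left out, with array weights, with an intensity trend and robust estimation, or without 2 arrays far from their groups (Chop null P28 replicate 2 and WT 4 months replicate 1). It gave 2 with the groups compared alone or without the 2 arrays at 4 months. At 4 months against P5 (0) it gave 1 with the trend and 3 in those last 2 settings. The causes were not tested. Fits of fewer groups have fewer degrees of freedom and take the spread from those groups alone.

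Counts over all genes moved further. S63del against WT at P5 (298) gave 1033 with array weights, 572 without the 2 far arrays and 901 with that age alone. At P28 (572) it gave 1761 without the far arrays and 59 with that age alone, and at 4 months (0) it gave 39 without the far arrays and 35 without the 2 arrays at 4 months. S63del/Chop null against Chop null at P5 (221) gave 935, 441 and 586 in the first 3 of these settings. At P28 (2209) it gave 14, 670 and 84. Chop null against WT at P28 (0) gave 15 after quantile normalization and 13 without the far arrays, and S63del/Chop null against S63del at P5 (2) gave 6 with array weights. S63del/Chop null against Chop null at 4 months (0) gave 4 without the 2 arrays at 4 months. With every probe set on its own the WT age comparisons gave 11657, 11107 and 7287 of 20380 (7378, 7062 and 4557 of 12393 genes). With dim genes left out the first 2 gave 4776 and 4585 of 7436 (64.2% and 61.7%). The change of the S63del effect at P28 against P5 (59) ran between 17 and 213, at 4 months against P5 (35) between 13 and 77 and at 4 months against P28 (21) between 5 and 121, fits with 1 array left out included. The interaction (0) gave at most 3 genes in these settings, but 2239 at P28 without Chop null replicate 1, where Chop null against WT (0) gave 3484. With 1 array left out S63del against WT gave 119 to 149 genes at P5 and 113 to 663 at P28. The labels link no samples by replicate number, and same-numbered deviations correlated between -0.477 and 0.349, so no pairing was used. With a replicate block within each age the counts of the 10 genes were 5 and 3 for S63del against WT at P5 and P28 and 4 and 3 for S63del/Chop null against Chop null.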
